A study of Mus musculus with 48 samples.

Results

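RNA recovered with the protein Tnrc6a was compared between 2 knockout lines of mouse embryonic stem cells, labelled Ago2 knockout and Upf1 knockout. Tnrc6a carried the tag HA-AVI, and magnetic beads with an HA antibody pulled it out of cell lysates (the immunoprecipitate, IP). RNA was sequenced from the IP and from the lysate before the beads (the input). Of the 48 libraries of the series, 24 belong to this comparison, in 8 groups of 3: IP and input of each knockout, in experiment 3 and again in experiment 4. All 8 groups share a 129S6/SvEvTac stem cell background with the reporter locus GFP_5xT71BS, a stably transfected FLAG-Cas9 with blasticidin resistance, and the tagged Tnrc6a. They differ in Ago2-/- or Upf1-/-. The dishes were grown on gelatin with LIF, in triplicate per the labels, and how many clones stand behind each line is not stated, so the p-values measure the spread between these dishes. The other 24 libraries, from tagged cells without a knockout and from untagged cells, entered the scaling of the CPM values, the description of the genes and an alternative fit with all 48 libraries, but not the tests reported unless named.

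Ago2 is an Argonaute protein, which holds a microRNA and uses its seed to find messenger RNAs (mRNAs). Tnrc6a, also called GW182, binds Argonaute and calls in the CCR4-NOT complex, which shortens poly(A) tails and leads to decapping and decay. Upf1 is an RNA helicase at the centre of nonsense-mediated decay (NMD), which removes mRNAs whose translation ends too early. In embryonic stem cells the miR-290 family is the best known group of microRNAs and acts on cell cycle and apoptosis genes, while let-7 is held low by Lin28a.

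Recovery is used here for the ratio of IP to input of a gene, on the log2 scale. The quantity compared is recovery in Ago2 knockout cells less recovery in cells labelled Upf1 knockout. A negative value means that less of a gene's RNA came down with Tnrc6a, relative to its input, in the Ago2 knockout. Levels are given as CPM, that is, counts relative to library size after TMM scaling, and a gene was called at a Benjamini-Hochberg adjusted p under 0.05 in edgeR's quasi-likelihood test. This test also stands behind each adjusted p given below.

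Library totals ran from 11471544 to 73845953 counts, and IPs of experiment 4 (28907273 to 73845953) were deeper than those of experiment 3 (11471544 to 18344233). The 14 naive pluripotency genes summed to between 5590 and 7490 CPM in the inputs. The 5 mesoderm genes summed to at most 4.72 CPM in the inputs, and the trophoblast genes Cdx2 and Elf5 had no row in the table. The 8 endoderm genes summed to 255 to 267 CPM in experiment 4 inputs labelled Upf1 knockout, against 104 to 110 CPM in those of the Ago2 knockout, and to 81.8 to 92.4 CPM in all inputs of experiment 3. The sums hide single genes. Over both experiments, 7 of the 8 were called lower in Ago2 knockout inputs (median log2 difference -1.51), against 23.5% of all genes tested. In experiment 3 inputs, 4 of the 8 stayed under 1 CPM in the Ago2 knockout and 2 in the line labelled Upf1 knockout. The 4 neural genes summed to 109 to 119 CPM in Ago2 knockout inputs and 51.5 to 68.3 CPM in the others. In bulk RNA, more cells of a type and more RNA per cell cannot be told apart, and the part of these cells in any result was not tested.

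The targeted genes were checked in each library. Ago2 mRNA stood at 97.1, 92.8 and 93.9 CPM in Ago2 knockout inputs of experiment 3, and at 282.1, 267.5 and 284.7 CPM in those labelled Upf1 knockout. In experiment 4 the corresponding inputs had 135.6, 129.8 and 124.3 CPM, and 459.3, 418.2 and 470.1 CPM. The groups did not overlap in either experiment, with Ago2 mRNA lower in the Ago2 knockout. Upf1 mRNA was higher, not lower, in the line named for its loss. For experiment 3, inputs of that line had 121.9, 123.1 and 123.6 CPM, and Ago2 knockout inputs had 82.0, 85.1 and 80.4 CPM. In experiment 4 the ranges were 135.2 to 142.2 CPM and 90.0 to 93.4 CPM. An mRNA level does not show whether the protein is made. Tnrc6a mRNA itself reached 58810, 41110 and 51680 CPM in Ago2 knockout IPs of experiment 3 and 23620, 19550 and 20500 CPM in those labelled Upf1 knockout. In experiment 4 the IPs overlapped, at 12690, 11210 and 15860 CPM and at 13790, 8696 and 7686 CPM. Tnrc6a inputs were also higher in the Ago2 knockout, by 0.60 on the log2 scale in each experiment. Its recovery difference was not called (0.25 in the average, adjusted p = 0.3).

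Less RNA of Mdm4, Wiz and Bcl2l11, and more of Tnfsf9 and Zfp941, came down with Tnrc6a in the Ago2 knockout than in the cells labelled Upf1 knockout, in both experiments. Some targets of the miR-290 family and of let-7, and the mRNAs of Ago1, Ago2 and Ago3, were among the RNAs that fell. Several naive pluripotency genes were among those that rose, although only 3 of the 14 on that list were enriched with Tnrc6a at 2-fold or more. Of the miR-290 family targets 29.4% fell, and of the let-7 targets 32.0%. The miR-290 share is near the 27.6% to 35.1% of all genes that fell in the classes well enriched with Tnrc6a, described below. Those classes hold 16 of the 17 miR-290 rows but 13 of the 25 let-7 targets. The other let-7 targets lie in classes in which 7.69% to 15.8% fell. The median of the miR-290 family list was 0.10, against -0.03 over all genes tested. Of 19962 genes tested, 24.4% were called in the average of both experiments, 2174 higher (10.9%) and 2704 lower (13.5%) in the Ago2 knockout. The balance of directions depends on the scaling, since with library totals in place of TMM 3244 were higher and 1870 lower. The experiments share no library and carry the same genotype labels. Experiment 3 gave 3241 calls (16.2%, with 6.24% higher and 9.99% lower) and experiment 4 gave 3009 (15.1%, with 7.17% higher and 7.91% lower). In both, with the same direction, 1805 genes were called (9.04% of genes tested), 737 of them higher (3.69%) and 1068 lower (5.35%). These 1805 genes make up 55.7% of the calls of experiment 3 and 60.0% of those of experiment 4. Of the 1807 genes called in both experiments whatever the direction, 2, Igfbp4 and Itsn2, had opposite signs. A difference of at least 2-fold on average was reached by 103 higher (0.516%) and 179 lower genes (0.897%), and in each experiment by 29 and 70.

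**Figure D1:**
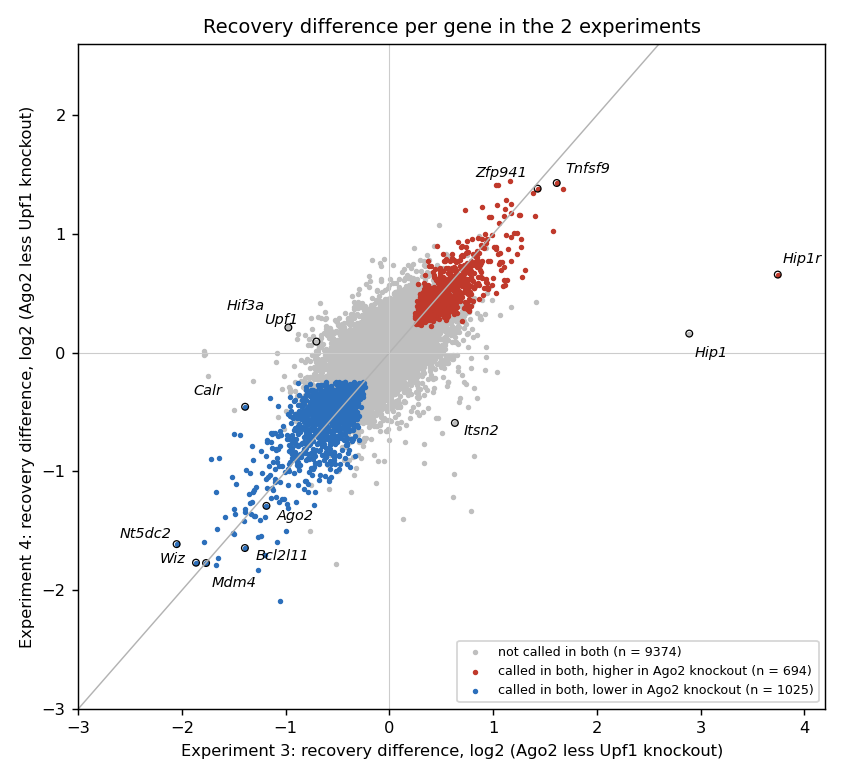
Each point is a gene with an average log2 CPM of at least 3, placed by its recovery difference (log2, Ago2 less Upf1 knockout) in experiment 3 (x axis) and experiment 4 (y axis), with the diagonal marking equal values. Of the genes shown, 694 red and 1025 blue points were called in both experiments with the same sign, Mdm4 lies on the diagonal at -1.77, and Hip1r and Hip1 lie far to its right.

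Among the genes recovered less in the Ago2 knockout in both experiments, those with the largest smaller value of the 2 experiments were Wiz, Mdm4, Prkx, Gm19531, Nt5dc2, Syap1, Cfl2, Eri1, Galm, Tmem50b, Bcl2l11 and Nectin2. Mdm4 (ENSMUSG00000054387, chr1:132986105-133030587 in GRCm38.p6) encodes a partner of Mdm2 that holds p53 in check. Its IPs had 851.8, 760.4 and 819.5 CPM in the Ago2 knockout and 2696, 2374 and 2420 CPM in the libraries labelled Upf1 knockout in experiment 3. In experiment 4 they had 565.7, 529.6 and 583.8 CPM against 2782, 2321 and 2274 CPM. All 6 Ago2 knockout IPs lay below all 6 others, while the inputs ran from 339.5 to 450.0 CPM and from 405.7 to 468.8 CPM. The recovery difference of Mdm4 was -1.77 ± 0.07 (SE, n = 3 per group; adjusted p = 9.69e-22), and -1.77 in each experiment.

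Wiz (ENSMUSG00000024050, chr17:32354047-32389501), a zinc finger protein of the G9a and GLP histone methyltransferase complex, had IPs at 316.0, 253.7 and 330.9 CPM in the Ago2 knockout against 822.9, 825.2 and 984.6 CPM in experiment 3. In experiment 4 the values were 337.8, 338.9 and 348.9 CPM against 968.6, 781.7 and 783.9 CPM. The IPs did not overlap, and the inputs differed the other way, with 72.5 to 86.9 CPM in the Ago2 knockout and 59.2 to 68.4 CPM in the libraries labelled Upf1 knockout. Its recovery difference of -1.82 ± 0.08 (SE, n = 3 per group; adjusted p = 1.29e-19) thus joins an IP difference of -1.40 and an input difference of 0.42.

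Bcl2l11 (ENSMUSG00000027381, chr2:128126038-128162547, overlapping Acoxl in the annotation) encodes the apoptosis inducer Bim. In experiment 3 its IPs had 386.6, 304.8 and 356.0 CPM in the Ago2 knockout against 609.3, 542.1 and 591.9 CPM, and in experiment 4 139.9, 134.1 and 149.3 CPM against 347.4, 292.0 and 268.1 CPM. Its inputs were higher in the Ago2 knockout, at 36.5 to 42.6 against 26.2 to 27.3 CPM in experiment 3 and at 23.6 to 25.5 against 15.8 to 17.6 CPM in experiment 4. Neither IPs nor inputs overlapped within an experiment. The recovery difference was -1.52 ± 0.08 (SE, n = 3 per group; adjusted p = 1.29e-17).

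The remaining genes of this group covered several functions. Eri1, an exonuclease that trims histone mRNA ends, stood at -1.51, and Cfl2, an actin-severing cofilin, at -1.52. Prkx, a kinase related to protein kinase A, was at -1.73 and Galm, a sugar mutarotase, at -1.57. Nt5dc2, which overlaps Stab1, was at -2.05 in experiment 3 and -1.61 in experiment 4. Nectin2, a cell adhesion molecule, differed in the inputs too, at -0.73 against -2.21 in the IPs. Over the 12 genes the IP difference ran from -2.21 to -0.72, and the input difference was above 0 in 9 and below 0 in 3.

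The genes with more recovery in the Ago2 knockout in both experiments, by the same ranking, were Tnfsf9, Zfp941, Itprip, Marchf9, Pheta1, Ube2g2, Med18, St3gal4, Cybc1, Vps26c, Tmem37 and Prr5l. Tnfsf9 (ENSMUSG00000035678, chr17:57105287-57107758, overlapping Gm11110), the ligand of the immune receptor 4-1BB, had inputs of only 1.05 to 4.26 CPM. Its IPs had 93.0, 75.1 and 91.7 CPM in the Ago2 knockout against 21.1, 18.3 and 25.9 CPM in experiment 3, and 31.9, 33.0 and 37.3 CPM against 12.1, 10.7 and 9.09 CPM in experiment 4. The IPs did not overlap in either experiment. The recovery difference was 1.52 ± 0.17 (SE, n = 3 per group; adjusted p = 6.7e-09).

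Zfp941 (ENSMUSG00000060314, chr7:140807453-140822201), a zinc finger gene, had nearly equal inputs, between 12.8 and 18.9 CPM in all 12 libraries. Its IPs had 84.5, 78.7 and 92.3 CPM in the Ago2 knockout against 30.9, 29.2 and 32.6 CPM in experiment 3. In experiment 4 they had 105.7, 104.5 and 109.0 CPM against 47.0, 39.9 and 40.3 CPM. Every Ago2 knockout IP was above every other, and the recovery difference was 1.41 ± 0.08 (SE, n = 3 per group; adjusted p = 4.5e-17).

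Ube2g2 (ENSMUSG00000009293, chr10:77622321-77645990, overlapping Gm46236 and Mir1930), a ubiquitin-conjugating enzyme of the endoplasmic reticulum, reached its recovery difference of 1.17 ± 0.08 (SE, n = 3 per group; adjusted p = 4.43e-14) through its inputs. Its inputs had 24.3, 22.6 and 22.4 CPM in the Ago2 knockout against 46.9, 45.8 and 48.7 CPM in experiment 3, and 20.9, 19.5 and 22.9 CPM against 48.7, 47.7 and 44.7 CPM in experiment 4. The inputs did not overlap, while the IPs differed by 0.14 on the log2 scale. Med18, a subunit of Mediator, had a recovery difference of 1.21, and Vps26c, a subunit of the retriever complex of endosomes, one of 1.28. In 9 of these 12 genes the input was lower in the Ago2 knockout, by as much as 1.03 on the log2 scale in Ube2g2, and in all 12 the IP was higher.

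Tagged cells without a knockout place these values. For Mdm4 the recovery was 0.92 and 0.66 in the Ago2 knockout (experiments 3 and 4), 2.61 and 2.44 in the cells labelled Upf1 knockout, and 2.05 and 1.90 in tagged cells without a knockout. Untagged cells, in which the beads have no tag to bind, gave -0.28 and 0.01. For Zfp941 the recovery was 2.56 and 2.55, 1.07 and 1.19, and 1.23 and 1.22 in the same order, with -0.23 and -0.27 in untagged cells. Over the 1068 genes called lower in both experiments, the Ago2 knockout stood at a median of -0.43 from tagged cells without a knockout and the cells labelled Upf1 knockout at 0.12. Over the 737 higher genes these medians were 0.44 and -0.13. The comparisons share the knockout libraries that chose the genes, so these medians describe and do not test.

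**Figure D2:**
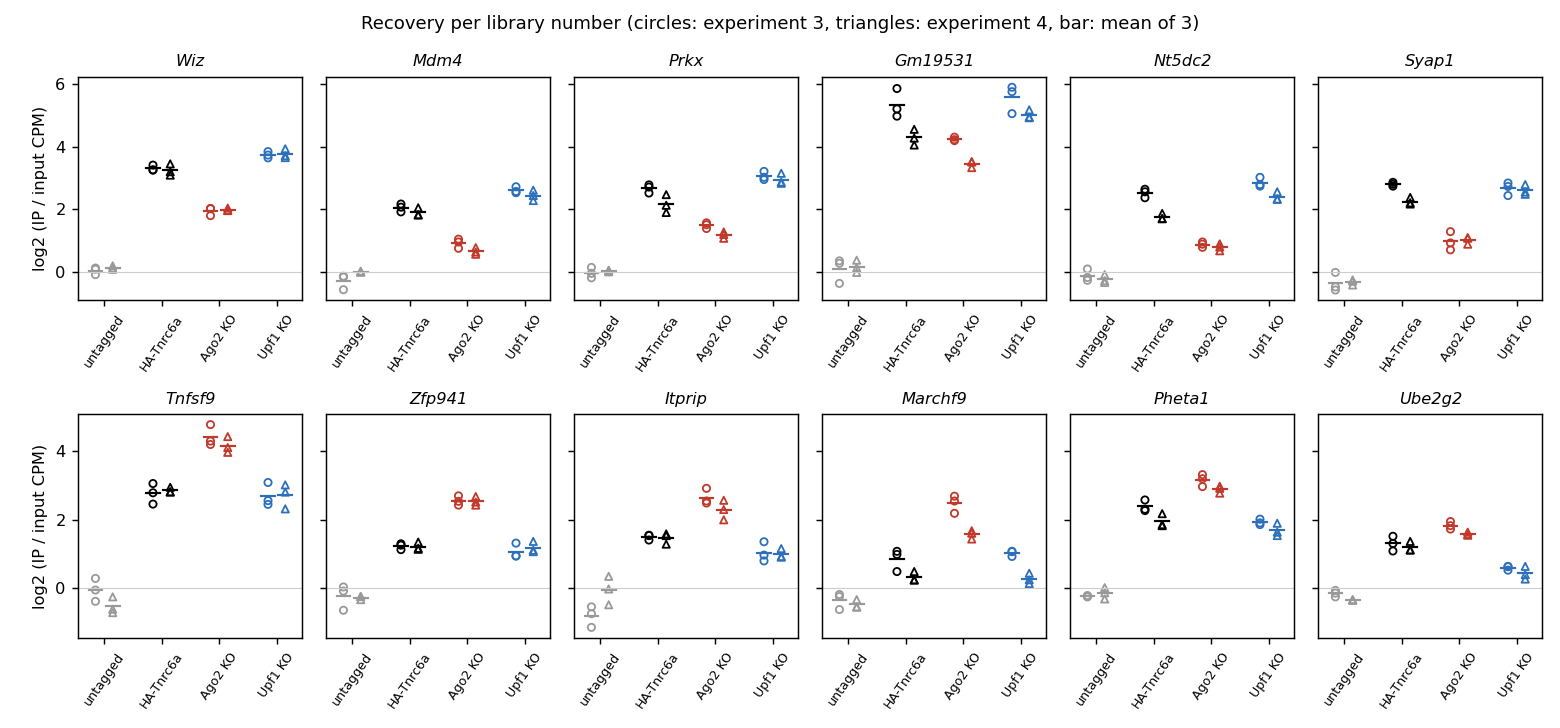
Recovery (log2 of IP over input CPM, with 0.5 added to each) of the 6 first-ranked lower genes (top row) and higher genes (bottom row) in the 4 genotypes, with 1 point per library number, circles for experiment 3, triangles for experiment 4 and bars for the mean of 3. The Ago2 knockout (red) lies below the other tagged genotypes for Wiz and Mdm4 and above them for Zfp941, and untagged cells are lowest in every panel.

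Enrichment with Tnrc6a was measured in the tagged cells without a knockout against untagged cells, which share no library with the knockouts. Of the genes lower in both experiments, 592 of 1068 (55.4%) were enriched by at least 2-fold with an adjusted p under 0.05, against 219 of 737 higher genes (29.7%) and 16.5% of all genes tested. The share called lower in the average rose from 2.94% of the 1191 genes below -1 (log2 enrichment) to 15.8% between 0 and 1, 27.6% between 1 and 2, and 35.1% of the 487 genes at 3 or more. The share called higher was 14.1% to 15.8% in the 4 classes at 0 or above. With library totals, 31.8% of the genes at 3 or more were lower and 20.1% higher, and lower genes still outnumbered higher ones in the 3 classes at 1 or above. Below -1 and between 0 and 1 the order of the directions turned with that scaling.

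**Figure D3:**
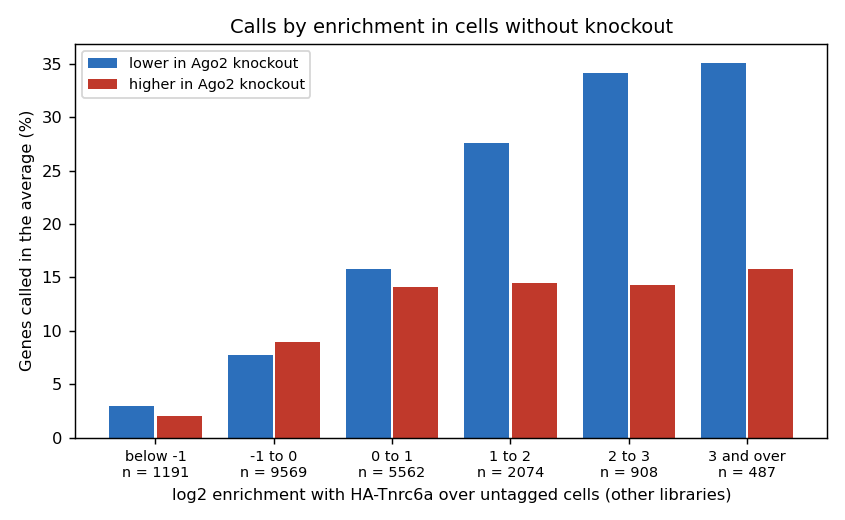
Bars give the percentage of genes called lower (blue) or higher (red) in the Ago2 knockout in the average of both experiments, by log2 enrichment with tagged Tnrc6a over untagged cells (x axis, number of genes under each class). The blue bars climb to 35.1% and the red bars stay at or below 15.8%.

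Abundance and length moved with the calls as well. Of genes with an average log2 CPM of 6 or more, 28.1% were called lower and 17.0% higher, and of those below 0, 1.37% and 0.958%. Genes shorter than 1000 bases were called lower in 7.44% and higher in 2.5%, and those of 8000 bases or more in 18.8% and 14.8%. More counts make a call easier, and the part of abundance in the enrichment classes was not tested.

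The microRNA families of stem cells are known by their seeds, and mRNAs reported to carry matches to them made 2 lists. The mature sequences below, from the RefSeq annotation of GRCm38.p6, show the seed (bases 2 to 8) in capitals, which is shared within each family and sets which mRNAs it can pair with. The first pair lies at chr7:3218968-3218989 and chr7:3220691-3220712 on the plus strand, miR-302b at chr3:127545275-127545297 on the plus strand, and the let-7 genes lie at chr13:48538239-48538260 (minus strand) and chr9:106178846-106178867 (plus strand).
mmu-miR-291a-3p: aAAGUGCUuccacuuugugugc
mmu-miR-294-3p: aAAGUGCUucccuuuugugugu
mmu-miR-302b-3p: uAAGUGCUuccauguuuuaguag
mmu-let-7a-5p: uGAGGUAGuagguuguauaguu
mmu-let-7g-5p: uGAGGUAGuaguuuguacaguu

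Of 17 table rows for miR-290 family targets (Lats2 has 2), 5 were lower (29.4%) and 2 higher (11.8%) in recovery, against 13.5% and 10.9% of all genes tested, with a median of 0.10 against -0.03 over all genes tested. With library totals the counts were 4 and 4. In tagged cells without a knockout the list had a median log2 enrichment of 2.72, with 16 of the 17 at 2-fold or more. The share of lower calls is near the 27.6% to 35.1% of all genes in those enrichment classes. The lower members included Bcl2l11, Ei24 at -0.89 ± 0.07 and Casp2, an initiator caspase, at -0.62 ± 0.09 (SE, n = 3 per group; adjusted p = 1.19e-12 and 3.56e-07). Fndc3a stood at -0.52 and Mbd2, a reader of methylated DNA, at -0.28. Casp2 IPs had 783.8, 580.9 and 726.2 CPM in the Ago2 knockout against 941.8, 855.0 and 964.7 CPM in experiment 3, and 470.5, 461.7 and 522.9 CPM against 797.3, 656.8 and 629.1 CPM in experiment 4. The groups did not overlap in either experiment. The higher members were the Nodal inhibitor Lefty2 at 0.31 and the receptor Tgfbr2 at 0.67, neither of them called in both experiments. In experiments 3 and 4 Lefty2 was at 0.09 and 0.53, and Tgfbr2 at 0.90 and 0.44. Cdkn1a, the p21 cell cycle inhibitor and a well known target of the family, was not called (0.14, adjusted p = 0.285), nor was Rbl2 (0.10, adjusted p = 0.501).

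Of 25 let-7 targets, 8 were lower (32.0%) and 2 higher (8.0%), against 13.5% and 10.9% of all genes tested, with a median of -0.08. Of the 25, 13 were enriched at 2-fold or more, classes in which 27.6% to 35.1% of all genes were lower. The others lay in classes with 7.69% to 15.8% lower. The lower members enriched at 2-fold or more were Tgfbr1, Igf2bp1, E2f5, Lin28a, Nr6a1 and Trim71. Igf1r and Igf2bp3 were the lower members under 2-fold. With library totals the counts were 6 and 4. E2f5, a transcription factor of the cell cycle, stood at -0.87, Igf2bp3, an mRNA-binding protein, at -0.77, and Trim71, a ubiquitin ligase and RNA-binding protein of stem cells, at -0.65. Igf2bp3 IPs had 77.5, 69.3 and 73.5 CPM in the Ago2 knockout against 133.4, 130.2 and 135.4 CPM in experiment 3, with inputs of 80.0 to 95.4 CPM in both lines. In experiment 4 the IPs were 72.1, 68.6 and 72.3 CPM against 132.2, 126.9 and 121.3 CPM. The IPs did not overlap, and those of the Ago2 knockout lay below their inputs. The higher members were the phosphatase Cdc25a at 0.54 and the Myc relative Mycn at 0.35. Neither Hmga2 (0.34, adjusted p = 0.15) nor Lin28b (0.29, adjusted p = 0.118) was called.

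**Figure D4:**
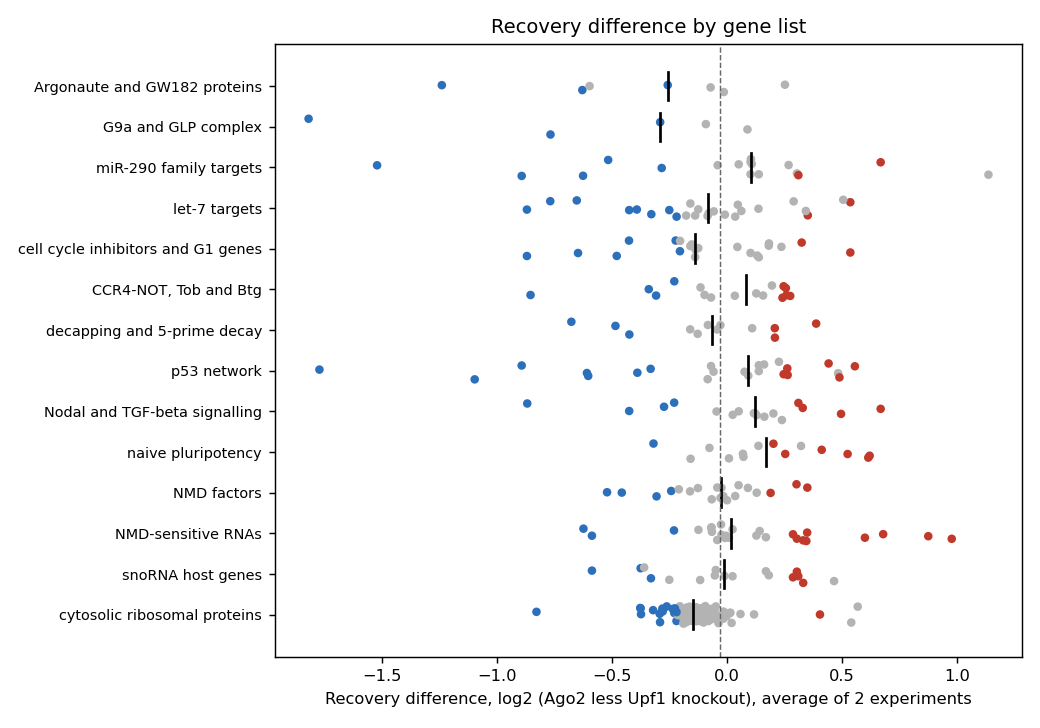
Each point is a gene of the list named at left, placed by its recovery difference (log2, Ago2 less Upf1 knockout, average of both experiments), blue where called lower, red where called higher and grey where not called. Black bars are list medians and the dashed line is the median of all genes tested (-0.03). Wiz, Mdm4, Bcl2l11 and Ago2 are the lowest points of their lists.

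The mRNAs of the silencing machinery were themselves among the RNAs that moved. Of 7 Argonaute and GW182 genes, 3 were lower (42.9%) and none higher, in TMM and with library totals. With TMM the shares over all genes tested were 13.5% and 10.9%. All 7 were enriched at 2-fold or more, classes in which 27.6% to 35.1% of all genes were lower. Ago2 and Ago3 were called in both experiments and Ago1 was not. Ago2, the gene deleted in one of the lines, was at -1.24, Ago3 at -0.63 ± 0.10 (SE, n = 3 per group; adjusted p = 4.78e-06) and Ago1 at -0.26. Ago3 IPs had 20.7, 20.9 and 21.3 CPM in the Ago2 knockout against 34.2, 28.9 and 30.1 CPM in experiment 3, with inputs of 9.63 to 12.7 CPM in both lines. In experiment 4 the IPs were 21.6, 24.1 and 20.8 CPM against 34.1, 29.3 and 33.8 CPM. The groups were apart in both experiments. Ago4 was not called (-0.60, adjusted p = 0.135). Tnrc6b (-0.07, adjusted p = 0.539) and Tnrc6c (-0.01, adjusted p = 0.915), the other GW182 proteins, were not called either.

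Among 16 genes of the CCR4-NOT complex and its Tob and Btg partners, 5 were higher (31.2%) and 4 lower (25.0%). The shares over all genes tested were 10.9% and 13.5%, and with library totals the list had 7 and 4. Of the 16, 8 were enriched at 2-fold or more, classes in which 27.6% to 35.1% of all genes were lower. The deadenylase Cnot6 was at -0.85 ± 0.08 (SE, n = 3 per group; adjusted p = 1.8e-11), its relative Cnot6l at -0.34 and the deadenylase Cnot7 at -0.31, while Cnot8 was at 0.26 and the scaffold partner Cnot2 at 0.24. Cnot6 IPs had 1114, 838.0 and 987.6 CPM in the Ago2 knockout against 1407, 1289 and 1345 CPM in experiment 3, and 627.4, 619.1 and 681.7 CPM against 1282, 1102 and 1035 CPM in experiment 4, with no overlap in either. Of 12 decapping genes 3 were higher and 3 lower (25.0% each). The decapping enzyme Dcp2 stood at -0.48, Lsm14b at -0.68 and the activator Dcp1a at 0.39. With library totals 4 decapping genes were higher and 3 lower. Of the 12, 5 were enriched at 2-fold or more. Of 11 genes of microRNA production 1 was higher (9.09%) and 2 were lower (18.2%), near the shares over all genes tested. This turned to 5 and 1 with library totals. Lin28a was one of the lower genes with TMM, at -0.25.

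The p53 network held 7 lower (30.4%) and 6 higher (26.1%) genes of 23, against 13.5% and 10.9% of all genes tested. With library totals the split was 6 and 10. Below Mdm4 in size came Ccng1, a cyclin induced by p53, at -1.10 ± 0.07 (SE, n = 3 per group; adjusted p = 4.1e-15), with inputs higher in the Ago2 knockout (174.3 to 182.3 against 106.3 to 107.1 CPM in experiment 3). Sesn2, a stress sensor, was at -0.61 and Trp53 itself at -0.39. The apoptosis inducer Bbc3 (0.56), Sesn1 (0.49) and Mdm2 (0.44) were higher, so that Mdm4 and its partner Mdm2 had opposite signs. Of 21 cell cycle inhibitors and G1 genes, 6 were lower (28.6%) and 2 higher (9.52%), which became 4 and 6 with library totals. Of these 21, 15 were enriched at 2-fold or more, so the share of lower genes is near that of the same classes. Besides E2f5 and Cdc25a the called genes included Ccne2 at -0.65, Ccnd3 at -0.48 and Cdk4 at -0.43. Ccne2 was at -0.32 in experiment 3 and -0.97 in experiment 4, and was not called in both. Of 17 Nodal and TGF-beta genes 4 moved each way (23.5% each), and with library totals 8 were higher and 3 lower. Of these 17, 9 were enriched at 2-fold or more. The signal transducers Smad2 and Smad3 were at -0.87 and 0.50. In the G9a and GLP complex 3 of 5 genes were lower (60.0%) and 0 higher (3 and 1 with library totals). The lower ones were Wiz, Cdyl at -0.77 and Zfp644 at -0.29, which were also the 3 of this list enriched at 2-fold or more. This list holds Wiz, the first-ranked lower gene above, and was chosen with earlier results of these data known.

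Of 14 naive pluripotency genes, 6 were higher (42.9%) and 1 lower (7.14%) in recovery, against 10.9% and 13.5% of all genes tested and 17.0% and 28.1% of those with an average log2 CPM of 6 or more. With library totals 7 were higher and 1 lower, and the median was 0.17 with TMM. In tagged cells without a knockout the list had a median log2 enrichment of 0.14, with 3 of the 14 at 2-fold or more. Among the higher members, the enrichment was 1.03 for Tbx3, 0.81 for Sox2, 0.62 for Nr5a2 and -0.28 for Zfp42. Tbx3 was at 0.62 ± 0.07, Nr5a2 at 0.61 ± 0.06 and Zfp42, also called Rex1, at 0.52 ± 0.06 (SE, n = 3 per group; adjusted p = 1.5e-09, 7.4e-10 and 4.5e-09), and Sox2 was at 0.41. Tbx3 IPs had 1066, 904.6 and 1089 CPM in the Ago2 knockout against 501.4, 509.2 and 562.2 CPM in experiment 3, and 1391, 1326 and 1387 CPM against 1036, 907.3 and 878.3 CPM in experiment 4. The IPs did not overlap in either experiment. Klf2 was the lower member, at -0.32, although both its inputs (457.3 to 484.4 against 158.0 to 172.1 CPM in experiment 3) and its IPs (4563 to 5735 against 1996 to 2570 CPM) were higher in the Ago2 knockout. Its input difference of 1.74 exceeded its IP difference of 1.42.

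RNAs known to be removed by NMD were mostly lower in both inputs and IPs of the Ago2 knockout. Of 26 such RNAs, 18 were lower and 7 higher in Ago2 knockout inputs than in those labelled Upf1 knockout, where 23.5% of all genes were lower and 33.2% higher. In the IPs 16 were lower and 6 higher, against 27.7% and 31.0% of all genes. Zfas1, a long noncoding host of small nucleolar RNAs, had inputs of 76.7, 76.0 and 69.1 CPM in the Ago2 knockout and 384.7, 397.1 and 354.0 CPM in those labelled Upf1 knockout in experiment 3. Its IPs had 110.6, 93.1 and 80.5 CPM against 341.8, 328.1 and 274.2 CPM. The groups overlapped in neither fraction. The differences of Zfas1 were -2.36 in the inputs and -2.07 in the IPs, those of Snhg5 -1.94 and -1.64, and those of the stress transcription factor Ddit3 -2.17 and -1.82.

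Recovery of the same 26 RNAs was higher in the Ago2 knockout for 9 (34.6%) and lower for 3 (11.5%). The shares over all genes tested were 10.9% and 13.5%. The median of the 26 was 0.02, and with library totals 12 were higher and 1 lower. The 3 growth arrest genes Gadd45a (0.68), Gadd45b (0.87) and Gadd45g (0.98) and the transcription factor Atf3 (0.60) were the 4 with the largest values. Gadd45b inputs had 7.96, 9.01 and 6.45 CPM in the Ago2 knockout against 32.1, 30.1 and 33.1 CPM in experiment 3, and its IPs 13.2, 10.7 and 10.3 CPM against 27.4, 25.7 and 22.5 CPM. Both fractions were lower in the Ago2 knockout without overlap, the input by more. Snhg15, at -0.59, went the other way, with -1.15 in the inputs and -1.74 in the IPs. These RNAs were poorly bound by Tnrc6a, with a median log2 enrichment of -0.54 and 3 of 26 at 2-fold or more. Of 20 NMD factors, 3 were higher (15.0%) and 4 lower (20.0%) in recovery (4 and 3 with library totals). Upf2, at 0.35, was one of the higher ones.

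**Figure D5:**
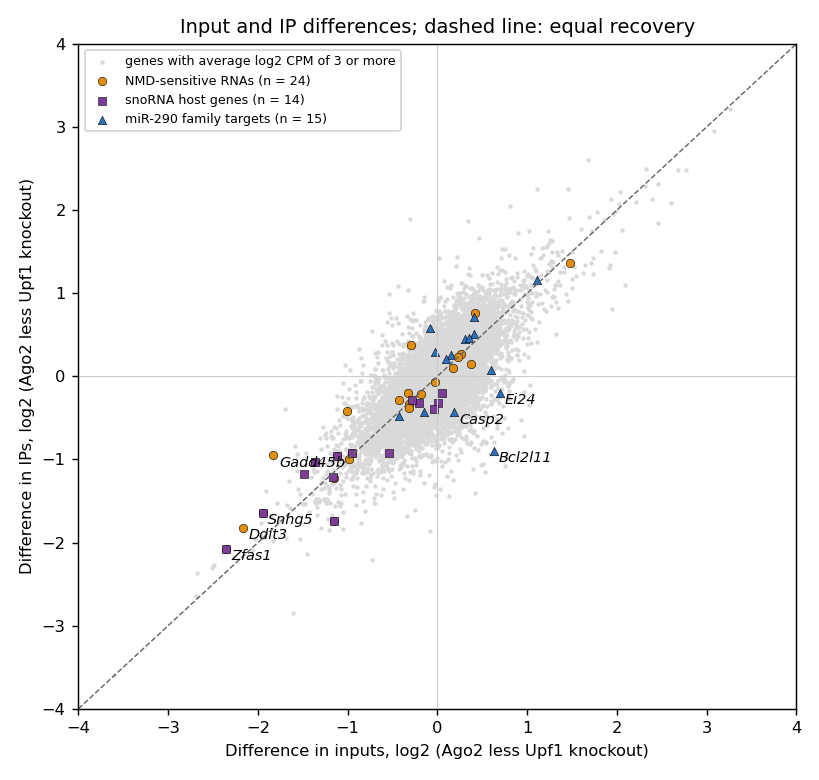
Each point is a gene with an average log2 CPM of at least 3, placed by its difference between the lines (log2, Ago2 less Upf1 knockout, average of both experiments) in the inputs (x axis) and in the IPs (y axis), with equal recovery on the dashed line. Zfas1, Snhg5 and Ddit3 lie low on both axes and near the line, while Bcl2l11 lies below it with a higher input (0.63) and a lower IP (-0.89).

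Ribosomal protein, mitochondrial and histone genes were counted as well. Of 86 ribosomal protein genes 17 were lower (19.8%) and 1 higher (1.16%), and 7 and 2 with library totals, with a median of -0.15. The shares over all genes tested were 13.5% and 10.9%, and 28.1% and 17.0% at an average log2 CPM of 6 or more. Their inputs were higher in the Ago2 knockout for 78 of 86 and their IPs for 51, against 33.2% and 31.0% of all genes tested. Rps27 stood at -0.83 and Rpl13 at 0.40. Of 12 mitochondrially encoded genes, all for ribosomal or transfer RNAs, 0 were called in the main edgeR fit and 1 had an unadjusted p under 0.05. In edgeR, 1 was lower with RLE size factors, with the replicate block and without the second Ago2 knockout IP of experiment 3. DESeq2 also called 1 lower. Of 51 replication-dependent histone genes 1 was lower, H1f2 at -0.80. Most members of these 2 lists had few counts, with a median average log2 CPM of -0.25 and -0.66 against 8.98 for the ribosomal protein genes, so that differences were hardly detectable. Near-identical copies make counts of ribosomal protein and histone genes uncertain.

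The experiments differed from each other in few genes. The difference between them (experiment 4 less experiment 3) was called for 25 genes (0.125%), 13 higher (0.0651%) and 12 lower (0.0601%), and 1813 had an unadjusted p under 0.05. The largest belonged to Hip1r and Hip1, 2 related adaptors that link clathrin coats to actin. Hip1r IPs in experiment 3 had 532.2, 430.0 and 621.9 CPM in the Ago2 knockout against 40.9, 49.9 and 52.0 CPM in those labelled Upf1 knockout. In experiment 4 they had 32.6, 33.3 and 37.8 CPM against 30.6, 27.8 and 28.2 CPM. Only the 3 Ago2 knockout IPs of experiment 3 stood high, and the inputs were between 17.9 and 43.6 CPM in all 12 libraries. Hip1 had 386.5, 345.3 and 496.4 CPM in those 3 IPs and 61.0 to 102.3 CPM in the other 9. The recovery difference of Hip1r was 3.75 in experiment 3 and 0.66 in experiment 4 (difference -3.09 ± 0.20, SE, n = 3 per group; adjusted p = 1.07e-11), and that of Hip1 2.89 and 0.16.

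Itsn2, a scaffold of the same endocytic pathway, changed sign, with 0.63 in experiment 3 and -0.59 in experiment 4. Its IPs had 438.6, 370.0 and 450.5 CPM against 158.7, 166.8 and 183.4 CPM in experiment 3, and 280.5, 283.9 and 282.8 CPM against 303.7, 284.9 and 272.2 CPM in experiment 4, where the groups overlapped. Of the 17 clathrin endocytosis genes in the list that holds Hip1r and Hip1, 2 were higher (11.8%) and 4 lower (23.5%) in the average. The shares over all genes tested were 10.9% and 13.5%, and with library totals the list had 3 and 1. Epn1 was at -1.11, with -1.17 and -1.05 in the experiments. In the opposite direction, Calr, a calcium-binding chaperone, moved from -1.39 to -0.46, Ostm1 from -1.31 to -0.24 and Hif3a from -0.97 to 0.21. With all 48 libraries in 1 fit these 3 were not called (adjusted p = 0.255, 0.13 and 0.106), and Calr was not called with library totals (adjusted p = 0.125).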

How the data were processed

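The authors deposited a table of raw counts per gene and library, with no normalization, and a gene length in bases, per the file headers. Another 48 deposited columns, headed RPKM, were not used. The submitters' processing notes name bcl2fastq 2.20, STAR 2.7.3a, GRCm38 and mm10, without a role. The annotation and the strand setting of the counting are not given in the sources used here, so overlapping genes are uncertain. The kit was stranded TruSeq total RNA, per the labels. Columns numbered 1 to 3 matched the labels of experiment 3. Columns numbered 4 to 6 could be given to a group of experiment 4 but not to a single sample.

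Of 20171 genes, 19962 passed filterByExpr (minimum count 10). The 24 libraries were fitted in edgeR 4.0.16 (limma 3.58.1, R 4.3.3) with 1 coefficient per group, TMM and robust quasi-likelihood, and tested two-sided with Benjamini-Hochberg adjustment. The contrast, IP less input in the Ago2 knockout less the same in Upf1 knockout, was formed within each experiment and averaged. A standard error is the size of the log2 value divided by the square root of F. CPM values were computed with TMM over all 48 libraries. Enrichment is IP less input in tagged less untagged cells. RefSeq matched 16415 of 16427 Entrez identifiers, and gave coordinates. The fit was tested on simulated data. Totals limit the precision of each value, for counting error only, since the labels mention no molecular identifiers. Replicates of a group differed by more than sampling noise (chi-square per degree of freedom 2.05 to 34.3).

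Named genes were Tnrc6a, Ago2 and Upf1, then per direction the 12 genes called in both experiments, with average log2 CPM of at least 3, ranked by the smaller of their absolute values, and per direction the 3 largest differences between experiments. Called members of the gene lists could be named too. Members and lists were chosen with earlier results of these data known. Lists are described by counts and medians only. The alternatives were RLE size factors, library totals, no filter, a minimum count of 50, DESeq2 1.42.0, all 48 libraries in 1 fit, replicate blocks, each experiment alone, IPs without inputs, a 2-fold minimum, and each library left out in turn.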

Additional observations from a re-analysis of the deposited data

Results flagged for a closer look

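The recovery difference between the knockouts differed between the experiments for 7 named genes, tested as experiment 4 less experiment 3 in edgeR's quasi-likelihood test. It was lower in experiment 4 by -3.09 for Hip1r, -2.73 for Hip1 and -1.22 for Itsn2 (log2; adjusted p = 1.07e-11, 1.41e-12 and 9.74e-07). It was higher in experiment 4 by 0.80 for Upf1, 0.94 for Calr, 1.07 for Ostm1 and 1.19 for Hif3a (adjusted p = 0.00162, 0.0153, 0.00994 and 0.0224). Hip1r, Hip1, Itsn2 and Upf1 kept an adjusted p under 0.05 with RLE size factors, library totals, no filter, all 48 libraries, the replicate block and DESeq2, and without the second Ago2 knockout IP of experiment 3. Calr, Ostm1 and Hif3a did not with all 48 libraries, nor Calr with library totals, and DESeq2 gave no adjusted p for Ostm1 and Hif3a.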

How the results depend on the processing

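Of 33 named genes, 27 kept their direction and their side of the threshold under all 35 alternatives. In experiment 4 alone the sign turned for Tnrc6a (-0.21), Upf1 (0.0395), Hif3a (0.16) and Itsn2 (-0.65), and the cause was not tested. The 4878 genes called in the average became 11719 with IPs compared without inputs, 2667 with experiment 3 alone and 282 with a 2-fold minimum, and ranged from 4486 to 5101 with each library left out in turn. The share of higher calls, 44.6%, was 63.4% with library totals, 53.2% without a filter, 57% with a minimum count of 50, 53.4% with all 48 libraries and 58.5% with experiment 3 alone. The 1805 genes called in both experiments became 6530 without inputs and 1515 to 1907 with a library left out, of which 1425 to 1657 were shared with the 1805. The 25 genes that differed between experiments became 13 with all 48 libraries, 41 with the replicate block and 88 with DESeq2, and 15 to 118 with a library left out. The 118 came without the second Ago2 knockout IP of experiment 3 and the 15 without the first Ago2 knockout input of experiment 3. They became 16 without the second of these inputs or without the third of these IPs, and 43 without the IP labelled Upf1 knockout numbered 6. The replicate numbers did not pair the libraries (mean correlation of same-numbered libraries 0.0146, none of 36 over 0.1), and with the replicate block 5101 genes were called in the average and 1991 in both experiments. Tnrc6a was called without the IP labelled Upf1 knockout numbered 4 (0.43, edgeR adjusted p = 0.00359), and Hif3a, at -0.38 in the average, was not called without any 1 of 4 libraries (-0.33 to -0.28), with library totals (-0.30) or with all 48 libraries (-0.34). IPs of experiment 3 included the lowest totals. With 3 dishes per group and unstated clones, the line and the knockout cannot be told apart.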
